A study of Mus musculus with 18 samples.

Results

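The Ikaros family of zinc finger transcription factors was followed across the whole experiment. Its 5 genes, Ikzf1, Ikzf2, Ikzf3, Ikzf4 and Ikzf5, were taken by symbol from the 15137 genes with values, and all 5 passed the minimum level for testing. RNA sequencing was done on naive CD4+ T cells sorted from C57BL/6J spleens as CD3+CD4+CD25-CD62L+CD44- cells. Cells came from Creld1 conditional knockout mice (cKO), in which Cre driven by CD4 sequences deletes Creld1, or from control mice. For each genotype there were 3 libraries of cells cultured for 8 h with anti-CD3 and anti-CD28 at 1 µg/ml, 3 of cells cultured for 8 h without stimulation, and 3 of freshly isolated cells, 18 in all. The groups are called stimulated, unstimulated and fresh below. CD4-Cre is active from T cell development in the thymus onward, not only in the mature cells sorted here. The ages, sexes and control alleles of the mice were not used here. The mouse label was the same for all 3 libraries of a group, and no label says that they came from separate animals, and so the tests weigh differences against the spread of these libraries alone, part of which may be technical.

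Ikaros family proteins bind DNA through zinc fingers near their amino terminus and pair with themselves and each other through zinc fingers near their carboxy terminus. They recruit chromatin remodelling and deacetylase complexes such as NuRD, and can silence or activate genes. Ikaros (Ikzf1) is required for normal lymphocyte development and restrains the response of T cells to their receptor. Aiolos (Ikzf3) is its close relative in lymphocytes, Helios (Ikzf2) and Eos (Ikzf4) are best known from regulatory T cells, where Eos acts with Foxp3 as a corepressor, and Pegasus (Ikzf5) is the most distant member. Ikaros and Aiolos are also the proteins that the cereblon ubiquitin ligase destroys in the presence of thalidomide analogues.

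The genes lie at chr11:11685003-11772926 on the plus strand (Ikzf1), and on the minus strand at chr1:69531214-69687245 (Ikzf2), chr11:98464902-98546031 (Ikzf3), chr10:128630843-128645991 (Ikzf4) and chr7:131388652-131410521 (Ikzf5). These are GRCm38 positions from GENCODE M21, the assembly named mm10 in the submitters' processing notes. All are annotated as protein coding. The library kit does not mark strand, so reads from overlapping genes on opposite strands cannot be told apart. This touches Ikzf5 most, whose 5721 annotated exon bases include 4652 shared with exons of Pstk, the kinase of selenocysteine tRNA synthesis. Ikzf5 also shares 183 exon bases with Gm44624, Ikzf2 shares 144 with Gm29114 and Ikzf4 shares 37 with Gm26876. The start regions of Ikzf1 and Ikzf5 are shown with matches to GGGAA, the core that Ikaros proteins recognise. Each runs from 250 bases before to 50 bases after a transcript start of RefSeq (GRCm38.p6), 5′ to 3′ on the strand of the gene, and capitals mark the core, which reads TTCCC when it lies on the opposite strand. The RefSeq starts used covered only these 2 of the 5 members, so no other start region is shown.
Ikzf1 upstream start: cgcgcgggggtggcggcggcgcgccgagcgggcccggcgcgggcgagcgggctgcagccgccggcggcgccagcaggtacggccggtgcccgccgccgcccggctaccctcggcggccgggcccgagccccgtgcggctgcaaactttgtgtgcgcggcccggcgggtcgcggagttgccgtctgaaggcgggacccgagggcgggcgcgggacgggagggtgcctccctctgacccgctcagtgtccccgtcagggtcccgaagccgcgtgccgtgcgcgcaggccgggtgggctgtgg
Ikzf1 downstream start: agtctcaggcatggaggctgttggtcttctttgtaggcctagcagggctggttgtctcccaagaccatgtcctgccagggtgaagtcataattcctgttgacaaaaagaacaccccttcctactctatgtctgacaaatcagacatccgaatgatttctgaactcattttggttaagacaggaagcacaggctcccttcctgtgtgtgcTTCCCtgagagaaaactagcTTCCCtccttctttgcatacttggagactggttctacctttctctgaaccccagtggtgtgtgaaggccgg
Ikzf5 start: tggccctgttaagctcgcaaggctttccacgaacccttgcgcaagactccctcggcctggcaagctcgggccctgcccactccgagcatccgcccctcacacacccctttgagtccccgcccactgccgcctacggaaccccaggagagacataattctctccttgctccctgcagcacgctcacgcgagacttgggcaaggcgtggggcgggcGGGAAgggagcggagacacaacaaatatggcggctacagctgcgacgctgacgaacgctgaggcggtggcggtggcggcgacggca
The upstream Ikzf1 window (chr11:11685675-11685974, plus strand) held 0 matches among 81.3% G or C bases. It lies inside the annotated gene, with 50 of its bases in an exon of Ikzf1. The downstream Ikzf1 window (chr11:11689927-11690226, plus strand) held 2 matches, both on the opposite strand, among 49.0% G or C bases, and 0 of its bases are in an annotated exon. The Ikzf5 window (chr7:131410429-131410728, minus strand) held 1 match on the strand of the gene among 65.7% G or C bases, with 93 bases in an Ikzf5 exon and 128 in an exon of Acadsb on the opposite strand. The core is short and common: 20599 of 32851 promoter windows of the same length held it (62.7%), with a median of 1 match. A match describes the letters only.

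The libraries carried the transcripts of naive CD4+ T cells. The summed linear values of 8 CD4 T cell markers lay between 44060 and 53831 in every library. The corresponding sums were at most 82.9 for 8 B cell markers, 173 for 8 markers of CD8 T and NK cells, 54.6 for 5 myeloid markers and 606 for 10 memory T cell markers. Creld1, the targeted gene, had mean log2 values of 4.38, 4.03 and 4.10 in stimulated, unstimulated and fresh cKO cells, against 4.74, 5.03 and 4.58 in the matching control cells. Its cKO minus control difference averaged over conditions was -0.62 ± 0.13 (SE), with an adjusted p of 0.343 over all genes, so the knockout showed at a low level of expression and did not pass the test. The slope of expression on the GC content of genes separated the unstimulated groups, at -0.19 to -0.068 in cKO libraries against 0.067 to 0.25 in control libraries. Differences refitted with this slope added are given below. Whether it caused differences that involve unstimulated cells was not tested.

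Ikaros and Aiolos made up most of the family's transcript level. Compared per kilobase of annotated exon on the linear scale, the level of Ikzf1 averaged 729 to 1101 across the 6 groups and that of Ikzf3 168 to 246. Ikzf5 averaged 53.2 to 77.4, Ikzf4 19.7 to 56.2 and Ikzf2 7.37 to 13.5 on the same scale. Most exon bases of Ikzf5 are shared with Pstk, and how reads there were counted is unknown. The level and share of Ikzf5, and comparisons of Ikzf4 with it, carry that limit. Shares within a library do not move with a scaling factor applied to the whole library. Ikzf1 held 67.1% of the summed family level in unstimulated cKO cells and 70.8% in unstimulated control cells. In fresh cells its share was 79.3% in cKO and 79.5% in control cells. Ikzf3 held 21.7% and 19.2% in unstimulated cKO and control cells, and 12.5% and 12.8% in fresh cKO and control cells. The share of Ikzf4 came close to that of Ikzf5 in culture. In fresh cells Ikzf4 held 1.45% in cKO and 1.55% in control cells, below the 5.74% and 5.39% of Ikzf5. After unstimulated culture Ikzf4 held 4.80 ± 0.79% in cKO cells, where Ikzf5 held 5.37 ± 0.024%. It held 4.79 ± 0.23% in control cells, where Ikzf5 held 4.55 ± 0.85% (SD, n = 3 each). In stimulated cells Ikzf4 held 3.99 ± 0.55% in cKO and 4.14 ± 0.17% in control cells, below the 4.35 ± 0.80% and 4.92 ± 0.66% of Ikzf5. Ikzf2 stayed the smallest, between 0.63% and 1.00% in group means.

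**Figure D1:**
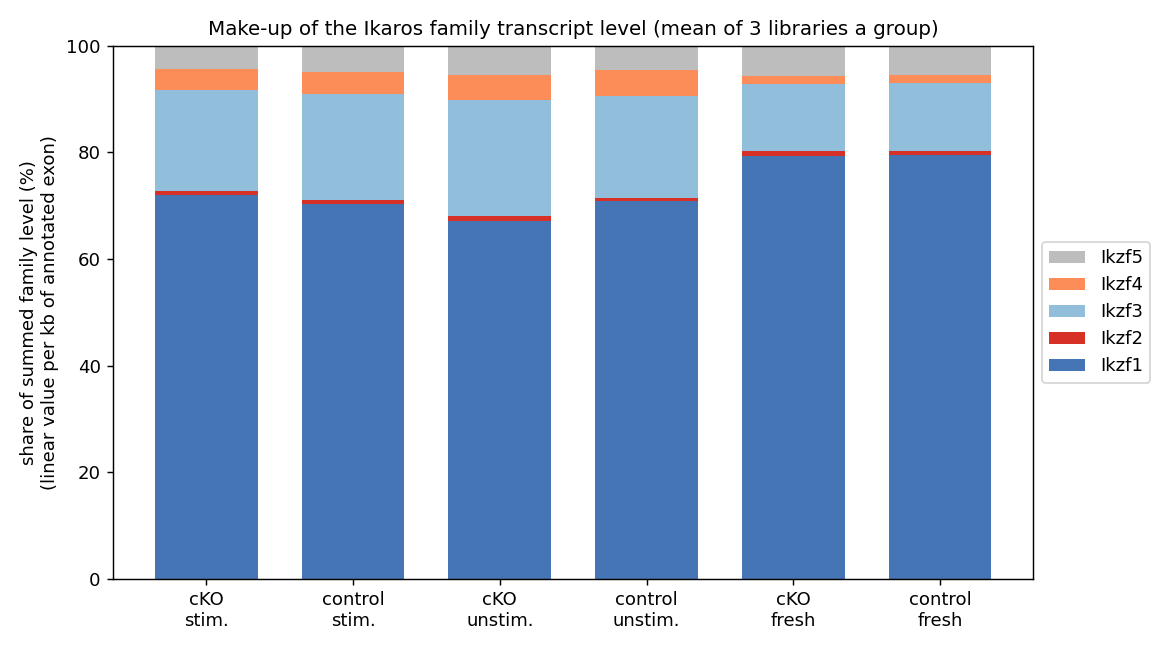
Stacked bars give each gene's mean share, in percent, of the summed family level per kilobase of exon in the 6 groups (n = 3 libraries each), from stimulated to fresh with cKO left of control. The Ikzf1 share is lower and the Ikzf3 and Ikzf4 shares are higher in cultured than in fresh cells; fresh cells hold 1.45% (cKO) and 1.55% (control) Ikzf4, unstimulated cells 4.80% and 4.79%.

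Ordered by group mean, every gene but Ikzf2 broke between the cultured and the fresh groups. Ikzf1 ran from 12.04 log2 in unstimulated cKO cells through 12.23 (unstimulated control), 12.29 (stimulated control) and 12.32 (stimulated cKO) to 12.60 (fresh cKO) and 12.63 (fresh control). Only 2 neighbouring pairs in this order had libraries that did not overlap, namely unstimulated cKO with unstimulated control and stimulated cKO with fresh cKO. The gap between the unstimulated groups was very narrow, from 12.123 in cKO to 12.127 in control cells. The orders of Ikzf3 and Ikzf4 each had 1 such break, between the 4 cultured groups and the fresh groups. Ikzf3 means were 10.95 to 11.07 in the cultured and 10.52 to 10.60 in the fresh groups, and Ikzf4 means were 8.19 to 8.39 in the cultured and 6.87 to 6.99 in the fresh groups. Ikzf5 had 1 break in the opposite sense, with 8.24 to 8.43 in the cultured and 8.74 to 8.78 in the fresh groups. Ikzf2 was ordered by genotype as well. Its means were 7.28 and 6.93 in fresh and unstimulated cKO cells, 6.87 in fresh control and 6.75 in stimulated cKO cells. They were 6.52 and 6.39 in stimulated and unstimulated control cells. The neighbouring pairs without overlap were fresh control with stimulated cKO, and stimulated cKO with stimulated control.

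Unstimulated culture against fresh isolation changed the family in both directions. Eos and Aiolos rose and Ikaros and Pegasus fell in both genotypes, while Helios passed, as a fall, in control cells and not in cKO cells, a difference between genotypes of 0.14 ± 0.24 (limma adjusted p = 0.906). In cKO cells 4 of 5 members passed the test (limma, Benjamini-Hochberg over 10877 genes, threshold 0.05), where 22.1% of all tested genes did. In control cells 5 of 5 passed, where 29.0% of all tested genes did. Ikzf4 moved farthest. Its log2 values were 8.24, 8.11 and 8.48 in unstimulated cKO cells, against 7.03, 6.64 and 6.95 in fresh cKO cells. They were 8.27, 8.49 and 8.42 in unstimulated control cells, against 6.83, 6.84 and 7.29 in fresh control cells. The groups were separated by more than the whole range within any of them. The rise was 2.64-fold in cKO cells (log2 1.40 ± 0.15 SE, limma adjusted p = 7.99e-06) and 2.65-fold in control cells (log2 1.40 ± 0.15, adjusted p = 6.62e-06). In absolute size it exceeded the change of 99.3% of tested genes in cKO cells and 99.0% in control cells.

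Aiolos, the lymphocyte relative of Ikaros, rose by less. Ikzf3 stood at 11.02, 11.06 and 10.94 log2 in unstimulated cKO cells, against 10.62, 10.45 and 10.51 in fresh cKO cells. It stood at 10.97, 11.03 and 10.83 in unstimulated control cells, against 10.59, 10.69 and 10.51 in fresh control cells. Cultured libraries lay above fresh ones in both genotypes without overlap. The log2 differences were 0.48 ± 0.08 in cKO cells (1.40-fold, limma adjusted p = 3.47e-04) and 0.35 ± 0.08 in control cells (1.27-fold, adjusted p = 0.00383).

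Ikaros, the most abundant member, went the other way. Ikzf1 stood at 12.12, 12.03 and 11.96 log2 in unstimulated cKO cells, against 12.61, 12.53 and 12.65 in fresh cKO cells. It stood at 12.13, 12.35 and 12.21 in unstimulated control cells, against 12.67, 12.62 and 12.61 in fresh control cells. Every cultured library lay below every fresh one. The log2 differences were -0.56 ± 0.07 in cKO cells (1.47-fold lower, limma adjusted p = 5.95e-05) and -0.41 ± 0.07 in control cells (1.32-fold lower, adjusted p = 7.63e-04).

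Pegasus and Helios also had lower means after culture. Ikzf5 stood at 8.44, 8.37 and 8.33 log2 in unstimulated cKO cells, against 8.97, 8.78 and 8.60 in fresh cKO cells. It stood at 8.47, 8.25 and 7.99 in unstimulated control cells, against 8.84, 8.64 and 8.72 in fresh control cells. Neither pair of groups overlapped. The log2 differences of Ikzf5 were -0.40 ± 0.13 in cKO cells (limma adjusted p = 0.0418) and -0.50 ± 0.13 in control cells (adjusted p = 0.0118). Pstk, which shares exon sequence with Ikzf5, differed by 0.09 ± 0.13 in cKO and -0.07 ± 0.13 in control cells, with overlapping libraries. Ikzf2 stood at 7.01, 6.66 and 7.13 in unstimulated cKO cells, against 7.54, 7.11 and 7.20 in fresh cKO cells, and these overlapped narrowly. It stood at 6.57, 6.65 and 5.94 in unstimulated control cells, against 6.90, 6.80 and 6.93 in fresh control cells, without overlap. The log2 differences of Ikzf2 were -0.35 ± 0.17 in cKO cells (limma adjusted p = 0.155) and -0.49 ± 0.17 in control cells (adjusted p = 0.0400).

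The calls of Ikzf1, Ikzf3 and Ikzf4 held in both genotypes with each library left out in turn and under every other setting tried. Those of Ikzf5 and Ikzf2 lie near the threshold. The Ikzf5 call in cKO cells was lost without any 1 of 8 libraries: replicates 1 and 2 of the fresh cKO cells, replicates 1, 2 and 3 of the unstimulated cKO cells, replicate 2 of the unstimulated control cells, and replicate 3 of the fresh and of the stimulated control cells. Its adjusted p was at most 0.167 there, without replicate 1 of the fresh cKO cells (log2 -0.31). The same call was lost with no filter (adjusted p = 0.0528), with library medians set equal (0.109), with quantile normalization (0.158) and with only the compared groups in the fit (0.0981). In control cells it was lost without replicate 1 of the fresh cells (adjusted p = 0.0515) or replicate 3 of the unstimulated cells (log2 -0.37, adjusted p = 0.0662). The Ikzf2 call in control cells was also lost without any 1 of 8 libraries: each of the fresh control libraries, replicate 3 of the unstimulated and of the stimulated control cells, replicate 1 of the unstimulated cKO cells and replicates 2 and 3 of the stimulated cKO cells. Without replicate 3 of the unstimulated control cells, its lowest library, the difference was -0.27 (adjusted p = 0.212), and with only the compared groups in the fit its adjusted p was 0.0773.

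**Figure D2:**
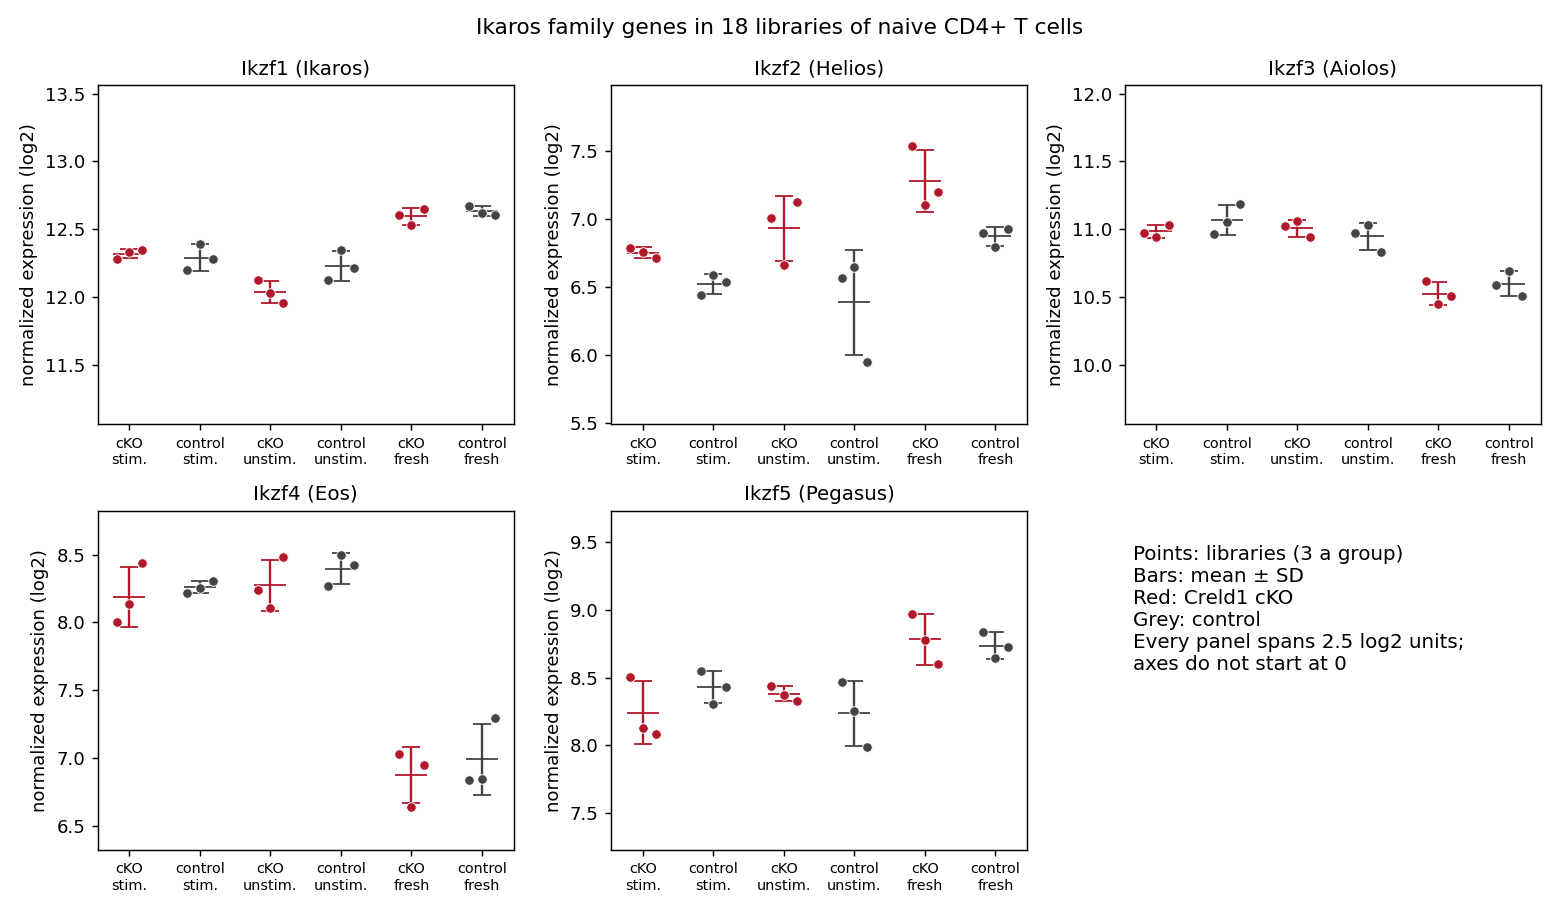
Deposited log2 values of the 5 genes in all 18 libraries (points), with the mean and SD of each group of 3; cKO groups are red and left of the grey control groups, and every panel spans 2.5 log2 units. Ikzf4 lies between 8.001 and 8.49 in all cultured libraries and between 6.64 and 7.29 in all fresh ones, and Ikzf2 lies higher in cKO than in control libraries of the same condition.

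The culture changes of Eos came in libraries whose regulatory T cell markers did not move together. Of 12 such markers, 11 were measured and tested, and Foxp3, the defining factor, lay between 5.58 and 6.39 log2 across the 18 libraries. In cKO cells 1 was higher and 3 were lower after culture, where 10.7% of all tested genes were higher and 11.4% lower. In control cells 2 were higher and 2 were lower, where 14.9% of all tested genes were higher and 14.1% lower. Ctla4, an inhibitory receptor, fell by 1.08 in cKO and fell by 1.24 in control cells on the log2 scale (limma adjusted p = 5.67e-06 and 1.18e-06). Gpr83 fell by 0.88 in cKO and fell by 0.83 in control cells, while Tnfrsf4, which encodes OX40, rose by 0.62 in cKO and 0.97 in control cells. Izumo1r, a surface receptor, fell by 1.04 in cKO cells (limma adjusted p = 0.0304). It differed by -0.77 in control cells, where it did not pass (adjusted p = 0.0852). Capg, an actin-capping protein, rose by 0.81 in control cells (adjusted p = 0.0376). It differed by 0.39 in cKO cells, where it did not pass (adjusted p = 0.345). Foxp3 differed by -0.22 in cKO and -0.18 in control cells (limma adjusted p = 0.315 and 0.359), against 1.40 in both for Ikzf4. The summed linear level of the 11 markers ran from 996 to 1190 in unstimulated cKO cells and from 1179 to 1810 in fresh cKO cells. It ran from 1261 to 1632 in unstimulated control cells and from 1426 to 1784 in fresh control cells. In bulk RNA, fewer cells of a type and less RNA per cell cannot be told apart.

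Stimulation with anti-CD3 and anti-CD28, compared with unstimulated culture of the same length, changed no member by the same test. In cKO cells 0 of 5 members passed, where 0.285% of all tested genes did (31 genes), and in control cells 0 of 5 passed, where 0.349% did (38 genes). At an unadjusted p under 0.05 the call rate of all genes was 23.1% in cKO and 11.3% in control cells, and of the family only Ikzf1 in cKO cells was among them. Ikzf1 stood at 12.28, 12.33 and 12.35 log2 in stimulated cKO cells, against 12.12, 12.03 and 11.96 in unstimulated cKO cells. The stimulated libraries all lay above the unstimulated ones, by 0.28 ± 0.07 on average (limma adjusted p = 0.119). In control cells it stood at 12.20, 12.39 and 12.28 with stimulation and 12.13, 12.35 and 12.21 without, and these overlapped (0.06 ± 0.07). The difference between the genotypes in this response was 0.22 ± 0.10 (adjusted p = 0.177). The adjusted p of Ikzf1 in cKO cells was 0.0475 without replicate 3 of the fresh cKO cells and 0.0246 when only the compared groups entered the fit. Setting library medians equal moved every cKO stimulation difference by -0.098, which put Ikzf1 at 0.18 (adjusted p = 0.195).

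The intervals of the other members bound how far each moved with stimulation in these libraries only. Few genes of any kind passed that test here, 31 in cKO and 38 in control cells. For Eos no difference was called in either genotype. Ikzf4 stood at 8.001, 8.13 and 8.43 log2 in stimulated cKO cells and 8.22, 8.25 and 8.30 in stimulated control cells. Its stimulated minus unstimulated difference had 95% intervals from -0.40 to 0.23 in cKO and from -0.45 to 0.18 in control cells. Ikzf3 stood at 10.98, 10.94 and 11.03 in stimulated cKO and 10.97, 11.06 and 11.19 in stimulated control cells. Its intervals ran from -0.19 to 0.14 in cKO and from -0.04 to 0.29 in control cells, the narrowest of these 4. Ikzf5 stood at 8.51, 8.13 and 8.08 in stimulated cKO and 8.55, 8.31 and 8.43 in stimulated control cells, with intervals from -0.43 to 0.14 and from -0.09 to 0.48. Helios had the widest intervals. Ikzf2 stood at 6.79, 6.76 and 6.71 in stimulated cKO and 6.44, 6.59 and 6.54 in stimulated control cells. Its intervals ran from -0.53 to 0.18 in cKO and from -0.22 to 0.49 in control cells.

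**Figure D3:**
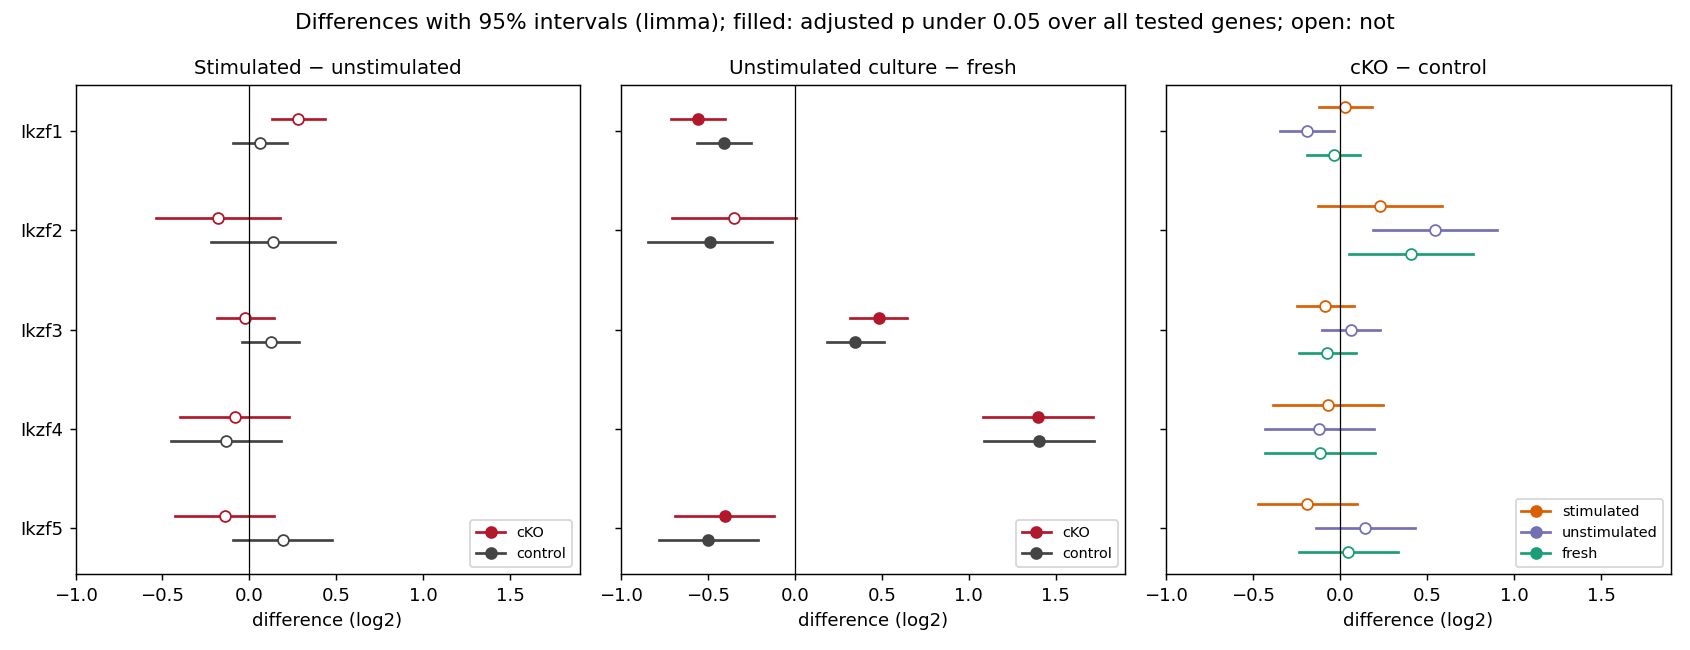
Log2 differences (points) with 95% intervals from limma for the 5 genes: stimulated minus unstimulated, unstimulated minus fresh, and cKO minus control; filled points passed an adjusted p of 0.05 over all tested genes. All filled points lie in the culture panel, with Ikzf4 at 1.40 in both genotypes.

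Genotype changed no member past the test, which at most 1 of 10877 tested genes passed in any condition. Still, Helios was higher in cKO libraries in every condition. In stimulated cells Ikzf2 stood at 6.79, 6.76 and 6.71 log2 in cKO, against 6.44, 6.59 and 6.54 in control libraries. In unstimulated cells it stood at 7.01, 6.66 and 7.13 in cKO, against 6.57, 6.65 and 5.94 in control libraries. In fresh cells it stood at 7.54, 7.11 and 7.20 in cKO, against 6.90, 6.80 and 6.93 in control libraries. The genotypes did not overlap in any condition, although in unstimulated cells the lowest cKO and the highest control library were 6.66 and 6.65. The differences were 0.23 ± 0.17, 0.55 ± 0.17 and 0.41 ± 0.17 in stimulated, unstimulated and fresh cells (limma adjusted p = 0.974, 0.103 and 0.790). Averaged over conditions the difference was 0.39 ± 0.10, 1.31-fold higher (limma adjusted p = 0.463). Of all 10877 tested genes, 5 (0.046%) had cKO libraries wholly above control libraries in all 3 conditions, and 1 (0.00919%) wholly below. The others above were Cd4, which encodes the sorted surface marker, Sqle, an enzyme of cholesterol synthesis, Mbnl1, a splicing regulator, and Sall1, a zinc finger factor, and the one below was Med12l; this count was made, and these genes were named, after their values had been seen.

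No regulatory T cell marker passed the genotype test (0 of 11 in each condition). Of 10877 tested genes, 0, 0 and 1 (0.00919%) passed it in stimulated, unstimulated and fresh cells, so this count says little about the markers. Foxp3 differed by 0.30, 0.00 and 0.04 between cKO and control in stimulated, unstimulated and fresh cells. Il2ra, which encodes the CD25 that the sort selected against, was higher in cKO by 0.32, 0.43 and 0.36 in stimulated, unstimulated and fresh cells, about as much as Ikzf2, and did not pass (limma adjusted p = 0.974, 0.184 and 0.790). The other markers varied by condition. Tnfrsf18, Capg, Izumo1r and Tnfrsf4 differed by -0.78, -0.79, -0.71 and -0.43 in unstimulated cells. They differed by -0.38, -0.37, -0.44 and -0.09 in fresh cells, and by 0.35, 0.20, 0.11 and 0.20 in stimulated cells. In stimulated, unstimulated and fresh cells Nrp1 differed by 0.14, -0.13 and 0.21, and Tigit by 0.18, 0.11 and -0.16. Gpr83 differed by 0.22, -0.08 and -0.03 in the same order, Lrrc32 by 0.08, -0.35 and -0.04, and Ctla4 by -0.26, -0.04 and -0.20. The median difference of the 11 markers was 0.20, -0.13 and -0.09 in these conditions, against 0.01, -0.01 and 0.00 for all tested genes. The summed level of the 11 markers was 1568 to 1863 in stimulated cKO and 1223 to 1805 in stimulated control cells. It was 996 to 1190 in unstimulated cKO and 1261 to 1632 in unstimulated control cells. In fresh cells it was 1179 to 1810 in cKO and 1426 to 1784 in control cells. The part of such cells in the Ikzf2 difference was not tested. After adding the GC slope to the fit, the unstimulated Ikzf2 difference was 0.44 (adjusted p = 0.733). Setting library medians equal raised every unstimulated cKO minus control difference by 0.13, which put Ikzf2 at 0.67 and Ikzf1 at -0.07. Without replicate 3 of the unstimulated control cells the Ikzf2 difference was 0.32 (adjusted p = 0.319). Without replicate 3 of the fresh cKO cells its adjusted p was 0.0317 in unstimulated cells, and 0.0350 for the mean over conditions.

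For the other members the genotype differences averaged over conditions were small. Across all genes, 0.00919% passed the test in fresh cells, 0.0184% for the mean of conditions, and 0 genes in stimulated or unstimulated cells, where 160 and 3606 had an unadjusted p under 0.05. The cKO minus control difference of Ikzf1 was -0.19 ± 0.07 in unstimulated cells (limma adjusted p = 0.107). These libraries only just did not overlap, with 12.123 the highest in cKO and 12.127 the lowest in control cells. Ikzf1 differed by 0.03 and -0.04 in stimulated and fresh cells. In stimulated, unstimulated and fresh cells Ikzf3 differed by -0.09, 0.06 and -0.08, and Ikzf4 by -0.07, -0.12 and -0.12. Ikzf5 differed by -0.19 ± 0.13, 0.14 ± 0.13 and 0.05 ± 0.13 in the same order. Averaged over conditions, the 95% intervals of cKO minus control ran from -0.16 to 0.02 for Ikzf1, from -0.13 to 0.06 for Ikzf3, from -0.28 to 0.08 for Ikzf4 and from -0.16 to 0.16 for Ikzf5. The culture response of Ikzf4 differed between genotypes by -0.0040 (95% interval -0.45 to 0.44), and 0 of 5 members passed either test of such a difference. Of all genes, 0.00919% passed that test for the stimulation response and 0 for the culture response, where 545 had an unadjusted p under 0.05.

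The balance between members within a library does not move with a scaling factor applied to the whole library, though other normalizations can move it. The log2 ratio of each member to Ikzf1 was compared over both genotypes, 6 libraries against 6, with an exact two-sided permutation test within genotype (400 permutations, smallest possible p 0.005), adjusted over 8 ratios. Culture raised the Eos to Ikaros ratio by 1.88, or 3.69-fold (exact p = 0.005, adjusted p = 0.02). That log2 ratio averaged -3.76 ± 0.25 in unstimulated cKO and -3.83 ± 0.04 in unstimulated control cells, against -5.72 ± 0.16 and -5.64 ± 0.29 in fresh cKO and control cells (SD, n = 3). The Aiolos to Ikaros ratio rose by 0.90, or 1.86-fold (exact p = 0.005, adjusted p = 0.02). The ratios of Ikzf2 and Ikzf5 to Ikzf1 moved by 0.06 and 0.03 in culture (exact p = 0.655 and 0.770). With stimulation the Ikzf4 to Ikzf1 ratio fell by 0.28 (exact p = 0.01, adjusted p = 0.0267). The ratio fell by 0.37 in cKO and fell by 0.20 in control cells. This call was lost without replicate 1 or 2 of the stimulated cKO cells or replicate 3 of the unstimulated cKO cells (adjusted p 0.0533 to 0.08). The other ratios had an adjusted p of at least 0.31 with stimulation, and that of Ikzf2 was called without replicate 3 of the unstimulated control cells (log2 -0.35, adjusted p = 0.0133).

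The genes whose 6 group means ran most like those of each member were found by the root mean square distance of the centred log2 means, among 7577 tested genes with a mean linear value of at least 100. Nearest to Ikzf4 were Ndrg1, Gm12258, Fam169b and Patj, at distances of 0.077 to 0.091. Ndrg1, a gene induced by cell stress and low oxygen, averaged 8.81 log2 in unstimulated cKO and 8.94 in unstimulated control cells, against 7.62 in fresh cKO and 7.67 in fresh control cells. Nearest to Ikzf1, at 0.029 to 0.041, were Myl6, a myosin light chain, Rinl, Grpel1 and Tbc1d2b. All 4 shared its lowest group mean in unstimulated cKO cells. Ikzf3 ran most like Taz, Syt11, Fam149b and Pyroxd1 (0.030 to 0.041). Ikzf5 ran most like Eed, a Polycomb subunit, Calr, a chaperone of the endoplasmic reticulum, Dnajc21 and Ly9 (0.028 to 0.035). The neighbours of Ikzf2 lay farther away, at 0.084 to 0.10, and were Cep44, Wls, a carrier of Wnt ligands, Tab3 and Fut8. These rankings use 6 means and describe likeness only.

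**Figure D4:**
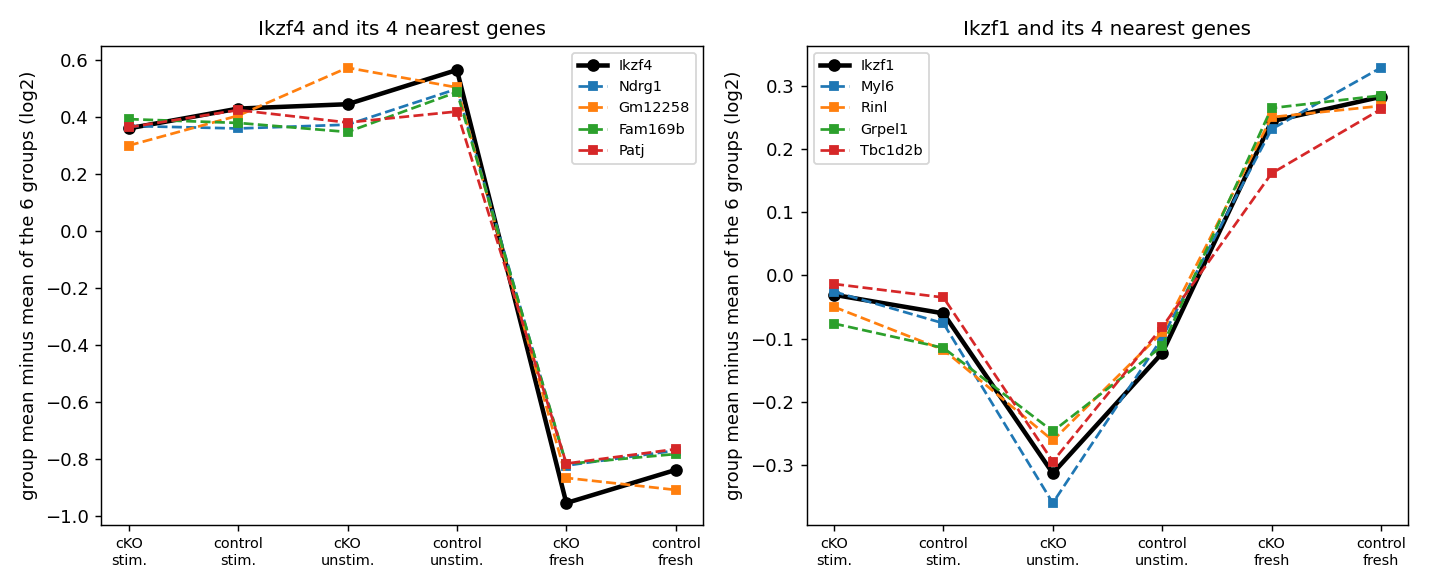
Group means of Ikzf4 (left) and Ikzf1 (right) with their 4 nearest genes, each minus its own mean over the 6 groups (log2 axis, linear steps), with cKO left of control in each condition. Ikzf4 and its neighbours stand high in the 4 cultured groups and low in both fresh groups, while Ikzf1 and its neighbours are highest in fresh and lowest in unstimulated cKO cells.

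Among genes whose products work with Ikaros proteins, the share that passed the culture test was near that of all tested genes for the corepressors. Of 17 corepressor genes 16 were tested. In cKO cells 1 rose and 3 fell, with a median difference of -0.15 against -0.02 for all genes, and in control cells 0 rose and 4 fell, with a median of -0.12 against 0.04. All tested genes were called in 22.1% of cases in cKO and 29.0% in control cells, with 11.4% and 14.1% lower. The NuRD subunits Chd3, Mta2 and Mbd2 fell in both genotypes. Mta2 fell by 0.43 in cKO and fell by 0.31 in control cells (limma adjusted p = 4.01e-04 and 0.00453), and Chd3, a remodelling ATPase, fell by 0.56 in cKO and fell by 0.35 in control cells. Chd4, the main NuRD ATPase in lymphocytes, fell by 0.22 in control cells, and Sin3a, the scaffold of another deacetylase complex, rose by 0.25 in cKO cells. Of 6 genes of the cereblon ligase, Ddb1, its adaptor, rose by 0.32 in cKO and 0.24 in control cells, and the others, Crbn itself among them, did not pass.

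Of 6 genes of the enzymes that phosphorylate or dephosphorylate Ikaros, 0 rose, and 2 fell in cKO and 3 in control cells, where 11.4% and 14.1% of all tested genes fell. The phosphatase subunit gene Ppp1cc fell by 0.32 in both, and Csnk2a2, a catalytic subunit of casein kinase 2, fell by 0.45 in cKO and fell by 0.46 in control cells. Csnk2a1, the other catalytic subunit, fell by 0.35 in control cells. It differed by -0.25 in cKO cells, where it did not pass (limma adjusted p = 0.121). In these 3 lists 0 genes passed the stimulation test in either genotype. Of all tested genes 0.285% passed it in cKO and 0.349% in control cells, so few could be looked for in lists this short. The smallest p in stimulated control cells belonged to Rbbp7 (0.29), Mta3 (-0.34), Rbbp4 (0.21) and Ctbp1 (-0.33) among corepressors, all at an adjusted p of at least 0.329.

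Of 24 genes described as bound or regulated by Ikaros proteins in lymphocytes, 13 were tested. After culture 2 were higher and 5 lower in cKO cells, with a median difference of -0.31 against -0.02 for all tested genes, of which 22.1% were called. In control cells 2 were higher and 2 lower, near the 29.0% called of all tested genes, with a median of -0.17 against 0.04. Bcl2, a survival gene, fell by 0.98 in cKO and fell by 0.88 in control cells (limma adjusted p = 7.66e-07 and 2.23e-06). Dtx1, a Notch target, fell by 2.16 in cKO and fell by 2.28 in control cells. Cdkn1a, a cell cycle inhibitor, rose by 0.97 in cKO and 1.00 in control cells, and Il7r, the receptor of a naive T cell survival cytokine, rose by 0.68 in cKO and 0.50 in control cells. With stimulation Il2ra, the high-affinity chain of the interleukin 2 receptor, rose in control cells by 1.20 ± 0.23 (limma adjusted p = 0.0309), and was 1.09 higher in cKO cells, where it did not pass (adjusted p = 0.0525). In the genotype comparisons 0 genes of these 4 lists passed, where at most 2 of 10877 tested genes did in any of them.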

How the data were processed

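Gene expression was read as the deposited log2 values, 1 per library for 15137 gene symbols, which the authors had normalized between libraries. The submitters' processing notes name HISAT2 2.1.0 and SAMtools 1.4, then DESeq2, Partek 6.6 and CASAVA 1.8, and mm10 as build, without saying what each did. How values were transformed, counted and annotated was not given in the sources used here. Base 2 follows from the values, whose linear sums were 6782465 to 7419367 per library, so depth is unknown and no counting interval is given. Per the labels' protocols, TruSeq version 2 libraries of 10 ng RNA gave 75 bp single-end reads. Groups came from the labels. Replicate numbers follow accession order and pair nothing, 0 pairs of libraries were identical, and 0 columns lacked a sample.

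Tested genes had linear values of 10 or more in at least 3 libraries (10877 genes, 71.9%). These log2 values were fitted with 1 mean per group (6 means) in limma 3.58.1 under R 4.3.3, moderated by empirical Bayes with a trend (12 residual degrees of freedom), with two-sided tests adjusted by Benjamini-Hochberg over all tested genes at 0.05. No pseudocount was needed. On simulated data for control stimulation with 10877 genes, of which 200 were changed, the share recovered was 39% for changes of 0.5 and 83% for changes of 1 on the log2 scale. The members and all lists were chosen with earlier results of these data known. The 5 members are named everywhere, Creld1 once, and per pathway list the 4 genes of smallest p in control stimulation, of which those beyond the corepressors are summarised, and every gene where 5 or fewer passed. Regulatory T cell markers are named where Ikzf2 or Ikzf4 is described. Like genes, planned for members that passed the stimulation test, were given for those that passed a culture test instead, since none passed that of stimulation. Alternatives were no filter, a minimum of 50, medians set equal, quantile normalization, no trend, a fit of the compared groups alone, library weights, a block of library number runs, a GC slope covariate, both together, each library left out and, added after the data were seen, the fresh cKO pair farthest in GC slope left out. Library weights were computed gene by gene because the default method did not converge.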

Additional observations from a re-analysis of the deposited data

How the results depend on the processing

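The culture calls of Ikzf1, Ikzf3 and Ikzf4 held in both genotypes under every alternative run. The number of members called in culture was 3 to 5 throughout, with 3 in control cells only when 1 library was left out. Library weights moved most counts: 2 members called in cKO stimulation, 2 by genotype in fresh and 2 in unstimulated cells, 1 for the genotype mean and 2 for the stimulation interaction. In the fit as reported these counts were 0. The weights also called Ikzf2 in cKO culture (adjusted p = 0.00321). Under them the Ikzf1 and Ikzf2 differences in control stimulation were -0.012 and -0.025, the fresh Ikzf3 genotype difference was 0.0042, and the culture interactions of Ikzf2 and Ikzf5 were -0.19 and -0.091. These weights were chosen after the default ones failed to converge. Fitting only the compared groups called 1 member in cKO stimulation (Ikzf1) and lost Ikzf5 in cKO and Ikzf2 in control culture.

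After adding the GC slope to the fit, the signs of small, uncalled differences turned: Ikzf5 to 0.053 in cKO stimulation and, by genotype, to -0.050 in fresh, -0.10 in unstimulated and -0.088 in mean cells, Ikzf4 to 0.020 by genotype in unstimulated cells, the stimulation interaction of Ikzf4 to -0.13, and the culture interactions of Ikzf4 and Ikzf5 to 0.081 and -0.054. Setting medians equal moved all genes by 0.13 in the unstimulated genotype difference and by -0.16 in the stimulation interaction. It turned the genotype differences of Ikzf1 to 0.0056 (fresh) and -0.0024 (stimulated), Ikzf4 to 0.0052 (unstimulated) and Ikzf3 to 0.013 (mean), and the Ikzf4 interactions to -0.11 (stimulation) and 0.077 (culture). Quantile normalization turned these interactions to -0.071 and 0.043, and the culture ratios of Ikzf2 and Ikzf5 to Ikzf1 to -0.14 and -0.081.

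No paired analysis was possible because the labels give no replicate numbers. Runs of consecutive library numbers served as a replicate block instead, although same-run libraries deviated together with correlations of -0.63 to 0.65. The block changed no call of a member. It raised calls over all genes to 887 (0 without it) for genotype in unstimulated cells and to 153 (31 without it) for cKO stimulation. The block with the GC slope gave 0.00033 and -0.0018 for Ikzf1 by genotype in fresh and stimulated cells, -0.042 for the Ikzf5 mean, and -0.018 and 0.028 for the Ikzf4 stimulation and culture interactions. Without the fresh cKO pair farthest in GC slope, an alternative chosen after seeing the data, 1 member (Ikzf2, adjusted p = 0.0299) was called by genotype in unstimulated cells. There the fresh genotype differences of Ikzf3 and Ikzf4 were 0.017 and 0.043, and the culture interactions of Ikzf2 and Ikzf5 -0.12 and -0.092.

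In cKO cells alone the ratios to Ikzf1 moved with stimulation by -0.46 (Ikzf2), -0.31 (Ikzf3) and -0.42 (Ikzf5), and with culture by 0.21 (Ikzf2), 1.04 (Ikzf3), 1.96 (Ikzf4) and 0.16 (Ikzf5). In control cells alone they moved with stimulation by 0.073 (Ikzf2), 0.060 (Ikzf3) and 0.13 (Ikzf5), and with culture by -0.082 (Ikzf2), 0.75 (Ikzf3), 1.81 (Ikzf4) and -0.093 (Ikzf5).

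With each library left out in turn, members called ranged from 0 to 1 in cKO stimulation, from 3 to 5 in control culture, and from 0 to 1 for genotype in unstimulated cells and for the genotype mean. The stimulation difference ranged from -0.058 to 0.0037 for Ikzf3 and from -0.21 to 0.017 for Ikzf4 in cKO cells, and from -0.085 to 0.27 for Ikzf2 in control cells. Genotype differences ranged from -0.20 to 0.035 (Ikzf4) and from -0.047 to 0.14 (Ikzf5) in fresh cells, from -0.016 to 0.080 (Ikzf1) and from -0.19 to 0.025 (Ikzf4) in stimulated cells, and from -0.044 to 0.039 for the Ikzf5 mean. The Ikzf4 interactions ranged from -0.072 to 0.15 (stimulation) and from -0.16 to 0.080 (culture), and the culture interactions of Ikzf2 and Ikzf5 from -0.083 to 0.27 and from -0.027 to 0.21. Ratios to Ikzf1 ranged from -0.35 to -0.066 (Ikzf2) and from -0.32 to -0.22 (Ikzf4) with stimulation, and from -0.065 to 0.22 (Ikzf2) and from -0.0076 to 0.11 (Ikzf5) with culture. The causes of these shifts were not tested. With 3 libraries a group and unknown depth, small changes could have been missed. In the simulation for control stimulation 39% of changes of 0.5 on the log2 scale were recovered.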
